A study of Mus musculus with 2 samples.

Results

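The TGF-beta ligands Tgfb1, Tgfb2 and Tgfb3, the receptors Tgfbr1 and Tgfbr2, and the fibrosis genes Postn, Tnc and Lox were followed across the cells of allergic ear skin lesions. The 8 genes were chosen by name, as 8 of the 35208 gene rows of the cDNA matrix, and their reads were counted by cell type and by pool. Cells came from the ears of male BALB/c mice aged 7 to 12 weeks, either wild-type (WT) or Ccr2-/-, with IgE-dependent chronic allergic inflammation (IgE-CAI). All mice, WT and Ccr2-/- alike, received an intravenous dose of 300 µg anti-TNP IgE, then a day later 10 µg of TNP-conjugated ovalbumin in the ear skin, and lesions were taken 3 or 5 days after that. Each genotype and day was labelled with its own hashtag antibody, and the 4 pools were mixed and processed in 1 cDNA library and 1 hashtag library, so that a group was 1 pool of an unstated number of mice. The Ccr2-/- mice lacked the receptor in all cells and not only in monocytes. The comparisons asked in which cells each gene was read, and whether its level differed with the loss of CCR2, the chemokine receptor by which classical monocytes leave the bone marrow and enter inflamed tissue.

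TGF-beta ligands are secreted in a latent form, bound to their own propeptide and to latent TGF-beta binding proteins in the matrix, and are released by integrins or thrombospondin. The free dimer binds the type II receptor, encoded by Tgfbr2, which recruits and phosphorylates the type I receptor, encoded by Tgfbr1, and this receptor in turn phosphorylates SMAD2 and SMAD3. Postn (periostin) and Tnc (tenascin-C) encode matricellular proteins that are laid down in healing and fibrotic skin, and Lox encodes lysyl oxidase, the enzyme that cross-links collagen and elastin fibres. In skin, fibroblasts are the main makers of collagen matrix, while TGFB1 is known as the ligand of platelets and immune cells.

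The promoters of 4 of these genes are printed here because they belong to genes with unlike patterns across the cell types, given further on. Tgfb1 had its highest levels in immune cell types, whereas Tgfb2, Postn and Tnc were read mainly in fibroblast-like cells. The sequences are those of RefSeq on GRCm38.p6, 5′ to 3′ on the strand of the gene, and end at the base before the start of a RefSeq transcript, the one nearest to the annotated gene start where a gene has several. Of the 8 genes, 6 had a promoter entry. The stretches are chr7:25686752-25687001 for Tgfb1 (plus strand), chr1:186705990-186706239 for Tgfb2 (minus strand), chr3:54360857-54361106 for Postn (plus strand) and chr4:64047016-64047265 for Tnc (minus strand). Capitals mark matches to CAGAC or its reverse complement GTCTG (the SMAD box), to TATAAA on the given strand (the TATA box) and to GGGCGG or its reverse complement CCGCCC (the GC box).
Tgfb1: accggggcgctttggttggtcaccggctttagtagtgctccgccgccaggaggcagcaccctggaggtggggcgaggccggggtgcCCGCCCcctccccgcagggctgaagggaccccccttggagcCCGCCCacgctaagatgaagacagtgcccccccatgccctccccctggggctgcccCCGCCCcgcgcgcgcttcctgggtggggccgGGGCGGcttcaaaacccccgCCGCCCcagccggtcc
Tgfb2: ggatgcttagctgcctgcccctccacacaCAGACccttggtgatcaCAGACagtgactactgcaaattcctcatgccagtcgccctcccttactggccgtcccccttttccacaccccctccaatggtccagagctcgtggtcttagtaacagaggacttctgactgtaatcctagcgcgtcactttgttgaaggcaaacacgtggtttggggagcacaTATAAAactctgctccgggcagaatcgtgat
Postn: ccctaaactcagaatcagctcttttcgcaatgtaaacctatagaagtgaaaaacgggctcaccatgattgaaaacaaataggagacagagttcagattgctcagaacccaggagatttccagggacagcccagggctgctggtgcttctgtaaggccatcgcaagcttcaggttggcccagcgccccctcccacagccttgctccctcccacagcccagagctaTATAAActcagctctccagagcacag
Tnc: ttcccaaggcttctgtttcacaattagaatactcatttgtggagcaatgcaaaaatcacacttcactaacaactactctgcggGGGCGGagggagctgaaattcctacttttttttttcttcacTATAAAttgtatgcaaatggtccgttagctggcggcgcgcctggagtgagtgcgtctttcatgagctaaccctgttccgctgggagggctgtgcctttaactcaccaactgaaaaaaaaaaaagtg

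The Tgfb1 stretch was 75.2% G and C, held the GC box 5 times and held no TATA box, against a median of 52.4% G and C over all 32851 mouse promoters of this length. The Postn stretch was 52% G and C, with the TATA box starting 26 bases before the transcript. Tgfb2 had the TATA box 31 bases before its start and the SMAD box 2 times, 221 and 204 bases before it. In the Tnc stretch, the TATA box stood 126 bases and the GC box 167 bases before the start. Postn and Tnc each had a further RefSeq start, not printed, with the SMAD box 191 bases (Postn) and 70 bases (Tnc) before it. Of all promoters, 42.2% held the SMAD box, 7.59% the TATA box and 32.7% the GC box, and a match of letters describes the sequence and not a bound site. By the GENCODE M21 annotation of GRCm38, the genes lie at chr7:25687002-25705077 (Tgfb1, ENSMUSG00000002603), chr1:186622792-186705989 (Tgfb2, ENSMUSG00000039239), chr12:86056745-86079041 (Tgfb3, ENSMUSG00000021253), chr4:47353222-47414931 (Tgfbr1, ENSMUSG00000007613), chr9:116084293-116175360 (Tgfbr2, ENSMUSG00000032440), chr3:54361109-54391037 (Postn, ENSMUSG00000027750) and chr4:63959785-64047015 (Tnc, ENSMUSG00000028364). Lox (ENSMUSG00000024529) lies on chromosome 18. The reads were counted per gene, so exons and isoforms were not told apart.

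Of 8953 barcodes, 7118 were kept as cells of a pool, with 1543 and 1037 WT cells of day 3 and day 5, 2191 and 2347 Ccr2-/- cells of the same days, and 68064673 to 162572556 reads per pool. The cells fell into 23 clusters, which gave 15 named cell types and 4 unnamed clusters. Ccr2 in Mo-Mac-like cells (the monocyte-macrophage lineage) stood at 943 and 683 CPM in the WT pools (reads scaled to 1000000 for each pool and cell type). It stood at 85.7 and 28.3 CPM in the Ccr2-/- pools. The paper reports fewer cells of its Ccr2-high clusters in Ccr2-/- mice, and the loss of the gene and that shift could not be told apart in these sums. The 1960 fibroblast-like cells had reads of all 7 fibroblast markers in every pool, summing to 35586 to 62920 CPM. The 360 cells called chondrocyte or perichondrium-like, led by Chad and Cilp2, had their own 7 markers at a sum of 1400.5 to 2299.8 CPM, with 1 marker at 0 in each WT pool, and the fibroblast markers at 31235 to 39279 CPM. The 755 neutrophil-like cells held Col1a1, a collagen gene of fibroblasts, at 372 CPM, and 82.7% of those thinned to 10000 reads had a read of it. Whether such reads came from free RNA or from doublets within a pool was not tested. Of the cDNA barcodes, 257 had no entry in the hashtag library, and 570 with several hashtags were left out, so that no cell counted in more than 1 pool.

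Among the ligands, Tgfb1 was highest in immune cell types, and, among the named types, Tgfb2 and Tgfb3 had their highest means in chondrocyte or perichondrium-like cells. Mo-Mac-like cells gave 35.7% of all Tgfb1 reads, more than any other cell type, and fibroblast-like cells gave 21.7%. By level, Tgfb1 stood highest in basophil-like cells at 301 ± 17.3 CPM (SD, 3 pools with at least 20 cells), with mast cell-like cells just below them at 284 ± 0.43 CPM (2 pools). Of the named types, NK cell or ILC-like cells (188 ± 16.9 CPM, 4 pools) and Mo-Mac-like cells (172 ± 26.3 CPM, 4 pools) followed, and their pools overlapped. From NK cell or ILC-like cells down to blood endothelium-like cells (108 ± 17.9 CPM) each type overlapped the next. An unnamed cluster led by Il1a, Ffar2 and Il1rn lay among the highest, at 295 ± 47.3 CPM in 2 pools. Its best marker list was that of neutrophils, and 187 and 302 of its 501 cells were Ccr2-/- cells of day 3 and day 5. A further unnamed cluster, led by Retnlg, Alox15 and Ccr3 and with eosinophils as its best list, had 242 ± 97.9 CPM in 3 pools. All 4 pools of blood endothelium-like cells, at 86.6 CPM or more, lay above the fibroblast-like pools, which reached at most 38.8 CPM.

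Tgfb2, the ligand known for its part in mesenchymal and epithelial development, came to 81.0% from fibroblast-like and to 10.7% from chondrocyte or perichondrium-like cells. Its level was 65.1 ± 23.3 CPM in the former and 66.6 ± 13.5 CPM in the latter over the 4 pools, with overlapping ranges. An unnamed cluster led by Gpx3, Id3 and Gnas had a higher mean, 89.7 ± 45.4 CPM over the 4 pools, and overlapped both. In the immune cell types it was near 0, with means of 0.51 CPM in T cell-like cells to 3.98 CPM in mast cell-like cells. The exception was basophil-like cells at 11.5 ± 19.3 CPM, where 96.3% of the reads lay in 1 cell. Tgfb3 was the ligand of the chondrocyte or perichondrium-like cells, at 196 ± 91.5 CPM, and all 4 of those pools lay above every pool of the next named type with 4 pools, the fibroblast-like cells at 48.6 ± 26.2 CPM. These 360 cells gave 28.6% of the Tgfb3 reads and the 1960 fibroblast-like cells gave 58.2%. Lymphatic endothelium-like cells, at 47.6 ± 42.3 CPM over 4 pools, overlapped the fibroblast-like cells in Tgfb3.

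The receptors had unlike patterns. Tgfbr2 was highest in fibroblast-like cells at 390.5 ± 56.8 CPM and in lymphatic endothelium-like cells at 369 ± 115 CPM, whose pools overlapped, and fibroblast-like cells gave 78.7% of its reads. Mo-Mac-like cells had 216 ± 97.4 CPM and chondrocyte or perichondrium-like cells 196 ± 34.0 CPM. Dendritic cell-like cells (48.4 ± 7.47 CPM) and keratinocyte-like cells (32.1 ± 6.87 CPM) were at the low end, below all 4 fibroblast-like pools. Tgfbr1 was low throughout and all neighbours in its order overlapped. Its named types ran from 6.38 ± 2.65 CPM in keratinocyte-like cells to 51.9 ± 11.0 CPM in mast cell-like cells, with 26.4 ± 6.86 CPM in fibroblast-like cells. The unnamed cluster led by Il1a had 102 ± 17.2 CPM in 2 pools, and the unnamed cluster led by Retnlg had 67.0 ± 59.9 CPM in 3 pools.

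**Figure D1:**
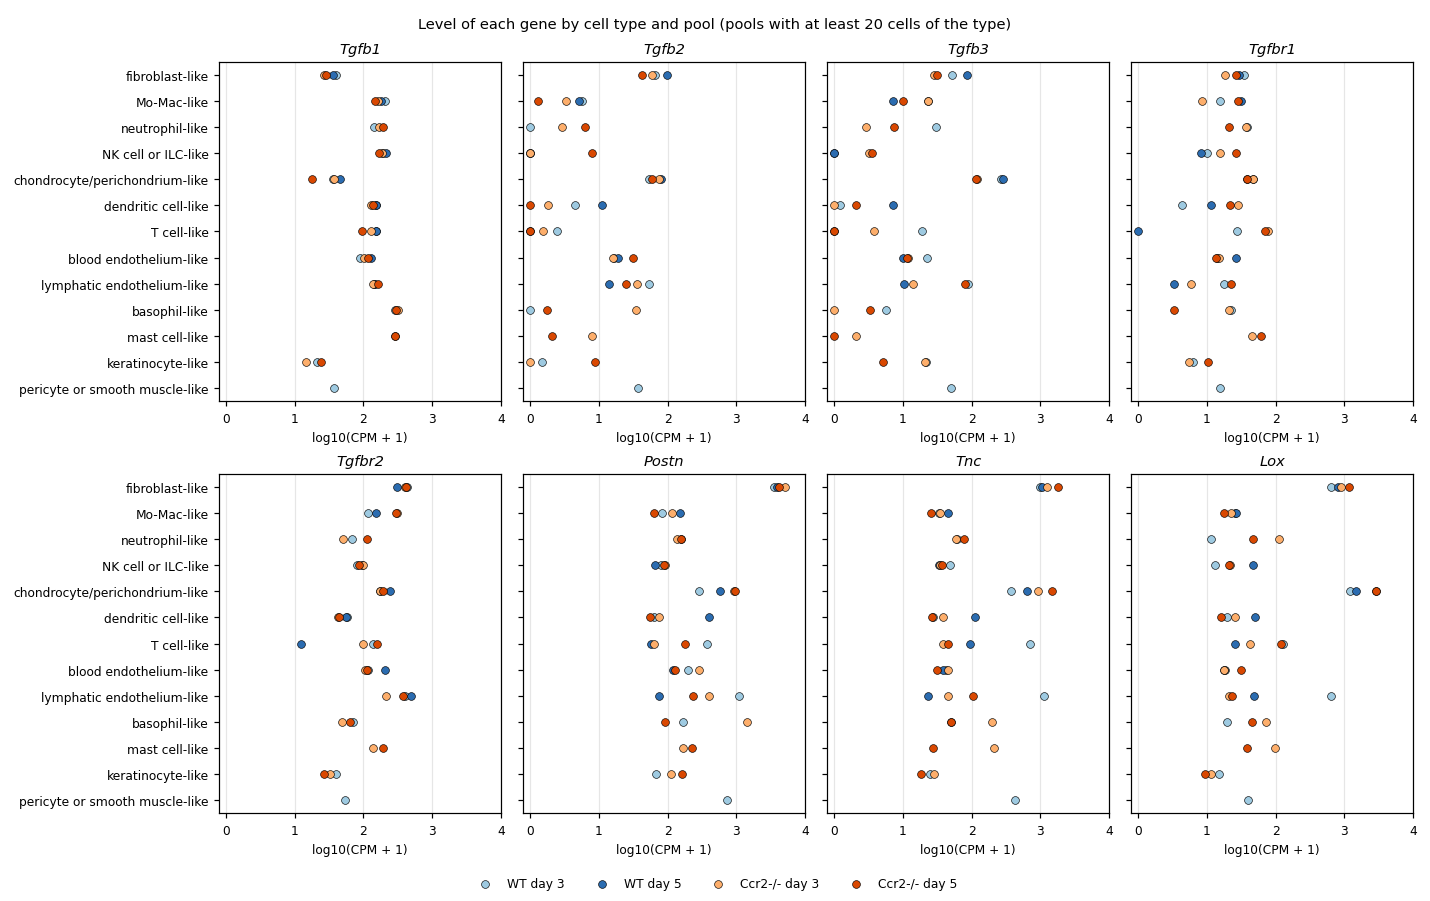
The level of each of the 8 genes, as log10 of CPM plus 1, in each named cell type with at least 20 cells in some pool. A point is 1 pool. Tgfb1 points of the immune types lie to the right of those of fibroblast-like cells. Tgfb2, Tgfb3, Postn, Tnc and Lox points lie furthest right in the fibroblast-like and chondrocyte or perichondrium-like rows. Exceptions are single pools of other types and Tgfb3 in lymphatic endothelium-like cells, at 9.4 to 88.4 CPM.

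The fibrosis genes were fibroblast genes with different reach. Postn came to 94.9% from fibroblast-like cells, Tnc to 88.1% and Lox to 75.0%. Postn stood at 4186 ± 684 CPM in fibroblast-like cells, above every pool of chondrocyte or perichondrium-like cells, which had 684 ± 311.8 CPM. For Tnc the 2 types overlapped, at 1281 ± 381 and 863 ± 489 CPM. Lox had the reverse order, with 2111 ± 886 CPM in chondrocyte or perichondrium-like cells and 878 ± 212 CPM in fibroblast-like cells, and here the ranges did not overlap. The unnamed cluster led by Gpx3, with a median of 5632 reads per cell, had Postn at 2698 ± 1422 CPM and Tnc at 1529 ± 1578 CPM.

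Beside Col1a1, Postn had 427 reads per 1000 Col1a1 reads in fibroblast-like cells, and 413 in neutrophil-like, 434 in NK cell or ILC-like, 438 in dendritic cell-like and 339 in Mo-Mac-like cells. Among the other named types it ranged from 154 in chondrocyte or perichondrium-like and 190 in lymphatic endothelium-like cells to 679 in blood endothelium-like, 704 in basophil-like, 809 in keratinocyte-like and 898 in Schwann cell-like cells. Tnc had 133 reads per 1000 Col1a1 reads in fibroblast-like cells, 188 in neutrophil-like and 186 in NK cell or ILC-like cells, and 201 in chondrocyte or perichondrium-like cells. Lox had 90.2 in fibroblast-like, 176 in neutrophil-like and 75.7 in dendritic cell-like cells, against 479 in chondrocyte or perichondrium-like cells. Of the Lox reads of neutrophil-like cells, 36.6% lay in 1 cell. Some high points came from 1 cell. In lymphatic endothelium-like cells of WT day 3, Tnc was at 1136 CPM, Lox at 645 CPM and Postn at 1099 CPM, and without the cell holding most reads of each gene the levels were 97.4, 132 and 222 CPM. Fibroblast markers summed to 31558 CPM in that pool and to 1099.2 to 3018 CPM in the other pools of the type. In T cell-like cells of WT day 3, Tnc was at 703 CPM, and at 106 CPM without 1 cell.

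The share of cells with a read was taken after each cell was thinned to 10000 reads, which kept 1902 of 1960 fibroblast-like and 335 of 755 neutrophil-like cells. Median depths before thinning were 106738 reads in fibroblast-like and 9352 reads in neutrophil-like cells, taken as the background for Postn, Tnc and Lox. Postn was read in 93.6% of fibroblast-like cells (95% exact binomial interval 92.4 to 94.6) and in 47.5% of neutrophil-like cells (42.0 to 53.0). Without thinning these shares were 97.3% and 43.3%. Lox was read in 82.0% and 15.8%, Tgfbr2 in 78.9% and 20.3%, and Tnc in 61.3% and 24.8%. Tgfb2 was read in 23.9% of fibroblast-like and 0.60% of neutrophil-like cells, Tgfb3 in 18.5% and 2.39%, and Tgfbr1 in 13.1% and 6.57%. Tgfb1 alone had the lower share in fibroblast-like cells, 19.1% (17.4 to 21.0) against 29.0% (24.2 to 34.1). The Mo-Mac-like share was 61.8% for Tgfb1, although by level Mo-Mac-like cells (172 ± 26.3 CPM) and neutrophil-like cells (168 ± 25.3 CPM, 3 pools) overlapped. For Postn (42.2%), Tnc (23.3%) and Lox (15.9%) the Mo-Mac-like share was not above the neutrophil-like share beyond the counting error. Without thinning the Mo-Mac-like shares were 82.0%, 63.6% and 50.0%, against 43.3%, 25.4% and 15.4% in neutrophil-like cells, which were less deeply read. Whether the Mo-Mac-like reads of these genes were background was not tested.

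**Figure D2:**
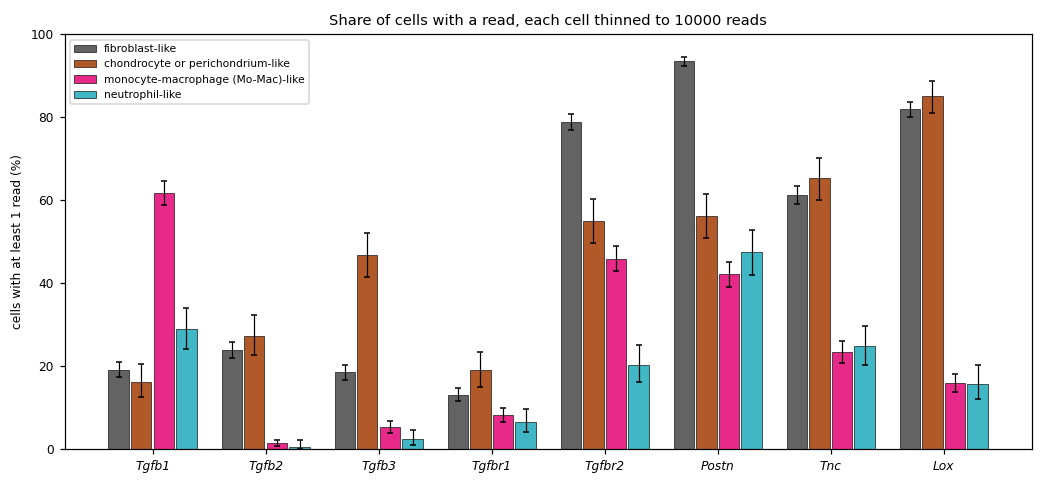
Share of cells with at least 1 read of each gene, in percent, after each cell was thinned to 10000 reads, over the 4 pools together. Bars are 4 cell types and lines are exact 95% binomial intervals, which cover counting error only. Postn, Tnc and Lox are at like heights in Mo-Mac-like and neutrophil-like cells, and Tgfb1 is highest in Mo-Mac-like cells at 61.8%.

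Between genotypes, the fibrosis genes of fibroblast-like cells were at higher levels in the Ccr2-/- pools, and the ligands at lower ones, but no difference passed the test. There were 353 and 282 fibroblast-like cells in the WT pools of day 3 and day 5 and 753 and 572 in the Ccr2-/- pools, with median depths of 70613, 73780, 130369 and 136410 reads. Postn stood at 3505 and 3911 CPM in WT, against 5115 and 4213 CPM in Ccr2-/- cells (day 3 and day 5 in each). Tnc stood at 1006 and 1049 CPM in WT, against 1238 and 1833 CPM in Ccr2-/- cells. Lox stood at 648 and 816 CPM in WT, against 891 and 1156 CPM in Ccr2-/- cells. For each of these genes both Ccr2-/- pools lay above both WT pools. Markers also differed between genotypes without overlap in these cells: the 7 fibroblast markers summed to 51019.5 and 62920.1 CPM in WT, against 40654 and 35586.5 CPM in Ccr2-/- cells, and the 7 Mo-Mac markers to 204 and 267 CPM, against 139 and 134 CPM, with none at 0. Their part in the result was not tested.

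Tgfb3 stood at 50.9 and 84.7 CPM in WT, against 27.8 and 30.8 CPM in Ccr2-/- fibroblast-like cells. Tgfb1 stood at 38.8 and 35.5 CPM in WT, against 25.98 and 27.9 CPM in Ccr2-/- cells, and Tgfb2 at 63.8 and 96.9 CPM against 58.5 and 41.1 CPM. For all 3 ligands both WT pools lay above both Ccr2-/- pools. Tgfbr1 also had both WT pools on top, with 34.0 and 28.8 CPM against 17.6 and 25.4 CPM. Tgfbr2 overlapped, with 435 and 308 CPM against 402 and 417 CPM.

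**Figure D3:**
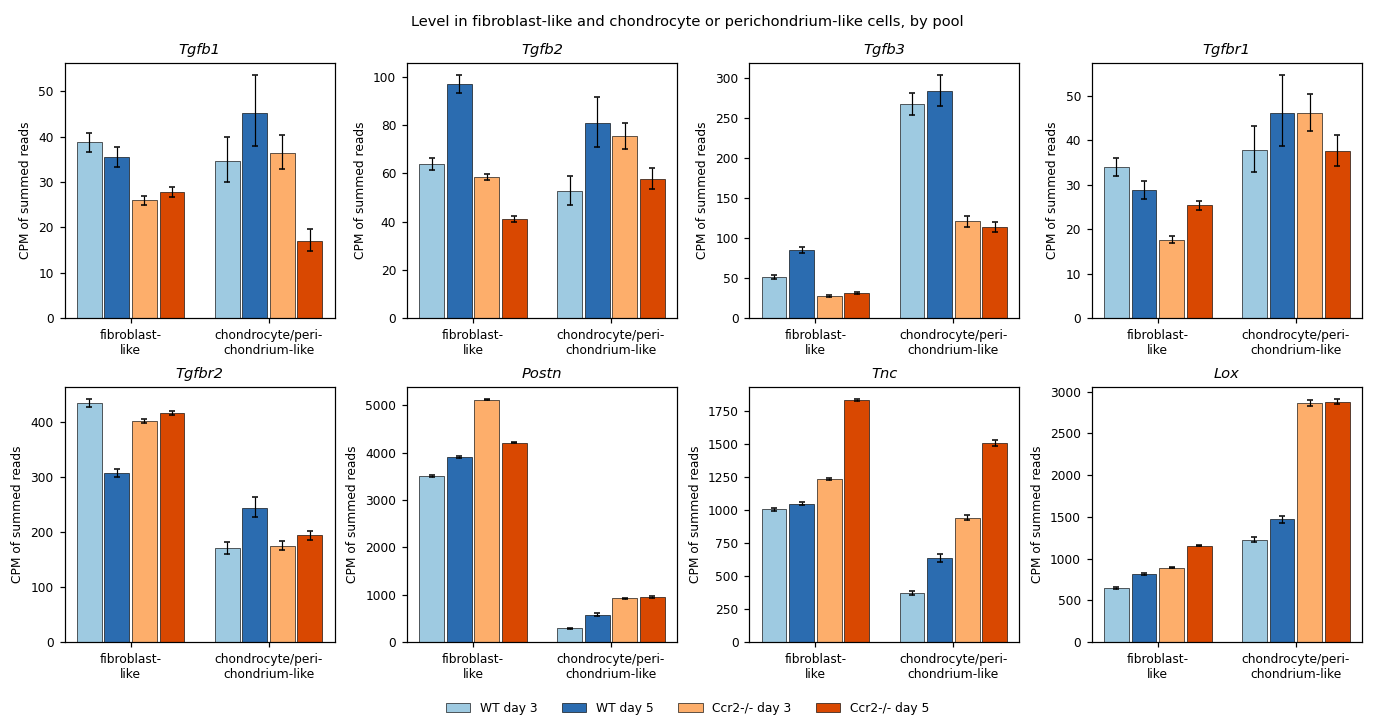
CPM of summed reads in fibroblast-like and in chondrocyte or perichondrium-like cells, 1 bar per pool, on axes that start at 0. Lines are exact Poisson 95% intervals on reads with PCR copies not collapsed, so they are too narrow, and they leave out the spread between mice. Lox, Tnc and Postn bars of the Ccr2-/- pools are above the WT bars in both cell types, and Tgfb3 bars are below them, at 114 and 121 CPM against 267 and 283 CPM in chondrocyte or perichondrium-like cells.

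The pools of a genotype were its 2 days, fitted with day and genotype together in edgeR's quasi-likelihood test, which left 1 residual degree of freedom. The log2 fold change of Ccr2-/- over WT in fibroblast-like cells was 0.49 for Lox (SE 0.08, adjusted p = 0.0897), 0.56 for Tnc (SE 0.13, adjusted p = 0.12) and 0.34 for Postn (SE 0.12, adjusted p = 0.229). For the ligands it was -1.15 for Tgfb3 (SE 0.19, adjusted p = 0.0908), -0.45 for Tgfb1 (SE 0.14, adjusted p = 0.172) and -0.67 for Tgfb2 (SE 0.29, adjusted p = 0.282). The receptors had -0.56 (Tgfbr1, SE 0.22, adjusted p = 0.249) and 0.17 (Tgfbr2, SE 0.15, adjusted p = 0.581). So 0 of the 8 genes passed, beside 0 of 20046 genes tested (0%). At an unadjusted p under 0.05 there were 5 of the 8, beside 20.3% of all genes, and DESeq2 called Lox, Tnc and Tgfb3, beside 8.06% of all genes. With 2 pools against 2, an exact two-sided permutation test could not go below p = 0.33.

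Different clusters held most fibroblast-like cells in the 2 genotypes. Cluster 1, with Reg1, Saa3 and Cxcl5 as leading genes, held 96 WT cells of day 3 and 50 of day 5, against 409 and 359 Ccr2-/- cells. Cluster 2, with Scara5 and Abca8a as leading genes, held 188 and 204 WT cells against 239 and 150 Ccr2-/- cells. The 8 genes were left out of the clustering. As a description of the 4 pools together, Tgfb3 was at 18.0 CPM in cluster 1 and at 94.7 CPM in cluster 2, and was read in 9.4% and 31.4% of thinned cells. Tgfb2 was at 42.3 and 97.9 CPM in the same order. Tnc was at 1626 CPM in cluster 1 and 721 CPM in cluster 2, Lox at 1064 and 607 CPM, and Postn at 4719 and 3882 CPM. Tgfbr2 was alike in both, at 409.7 and 400.1 CPM.

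The fitted genotype difference was nearer 0 in both clusters than over all fibroblast-like cells for 6 of the 8 genes, but not for Tgfbr1 in cluster 1 or Tgfbr2 in cluster 2. In cluster 2 alone Tgfb3 stood at 90.8 and 114 CPM in WT, against 78.5 and 102 CPM in Ccr2-/- cells, which overlapped, with a log2 fold change of -0.22 (SE 0.14, adjusted p = 0.658). In cluster 1 alone it stood at 23.2 and 43.9 CPM in WT, against 14.1 and 17.7 CPM in Ccr2-/- cells, with a log2 fold change of -0.98 (SE 0.23, adjusted p = 0.438), and 25.6% of its reads in the WT day 5 pool lay in 1 cell. Tnc overlapped in both clusters, with log2 fold changes of 0.26 (SE 0.07, adjusted p = 0.487) in cluster 1 and 0.13 (SE 0.14, adjusted p = 0.821) in cluster 2.

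Lox had log2 fold changes of 0.21 (SE 0.10, adjusted p = 0.63) in cluster 1 and 0.32 (SE 0.12, adjusted p = 0.5) in cluster 2, where it stood at 472 and 586 CPM in WT, against 656 and 689 CPM in Ccr2-/- cells, without overlap. Postn had 0.29 (SE 0.13, adjusted p = 0.615) and 0.22 (SE 0.11, adjusted p = 0.588). Tgfbr1 stood at 30.1 and 28.6 CPM in WT, against 15.1 and 24.5 CPM in Ccr2-/- cells of cluster 1, and its log2 fold changes of -0.57 (SE 0.26) in cluster 1 and -0.49 (SE 0.23) in cluster 2 were near the -0.56 over all fibroblast-like cells. Tgfb1 had -0.39 (SE 0.19) and -0.30 (SE 0.25), Tgfb2 had -0.21 (SE 0.22) and -0.33 (SE 0.19), and Tgfbr2 had 0.09 (SE 0.17) and 0.34 (SE 0.16), in the same order, with adjusted p-values of 0.562 or more for these 4 genes. In cluster 1, 2 of the 8 genes had an unadjusted edgeR p under 0.05, beside 8.27% of all genes, and in cluster 2, 1 of the 8, beside 9.57%. The difference between the clusters in the size of a genotype effect was not tested, and 0 of the 8 passed in either. The Tgfb3 log2 fold change over fibroblast-like cells was -0.14 with a mitochondrial limit of 10% and -0.26 at cluster resolution 2, settings under which the cells of cluster 1 were mostly not named fibroblast-like.

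**Figure D4:**
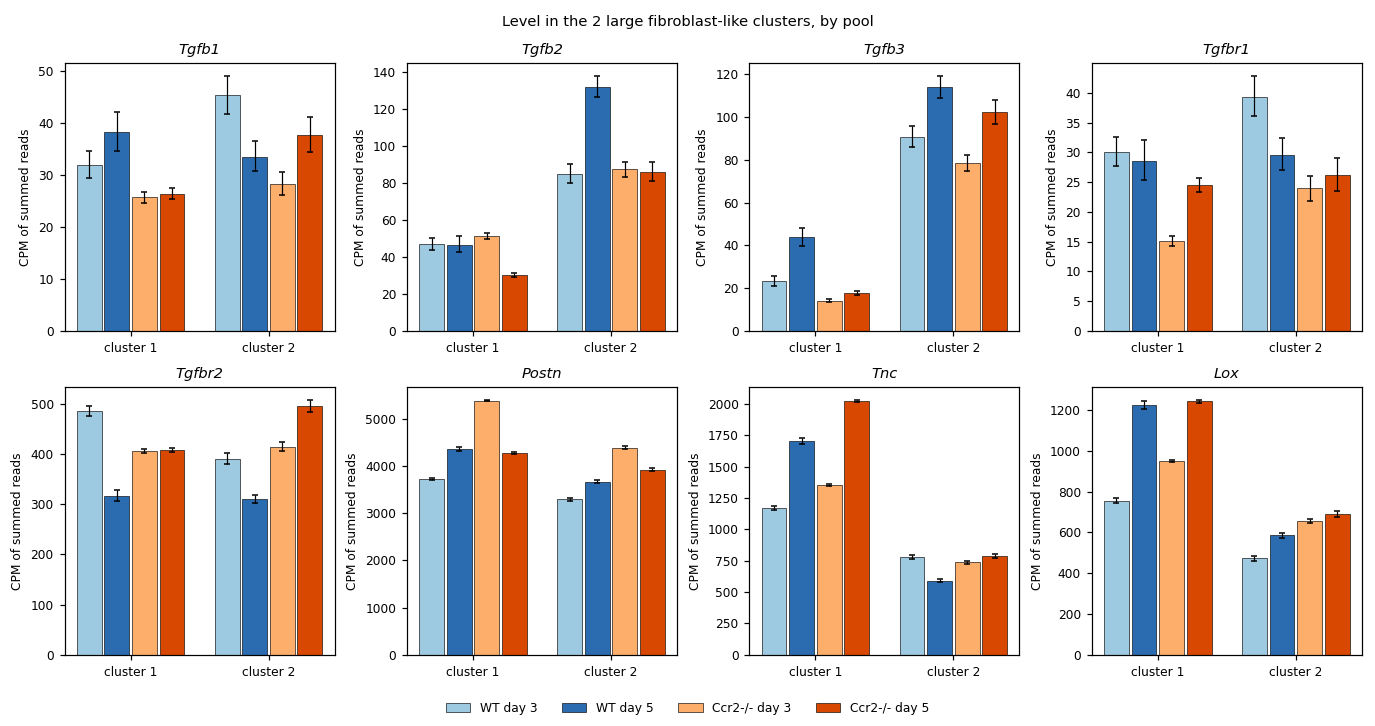
CPM of summed reads in the 2 large fibroblast-like clusters, 1 bar per pool, on axes that start at 0, with exact Poisson 95% intervals as lines. Tgfb3 and Tgfb2 bars are taller in cluster 2 and Tnc bars taller in cluster 1 in every pool, while Tgfbr2 bars are of like height, 409.7 and 400.1 CPM over the 4 pools.

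**Figure D5:**
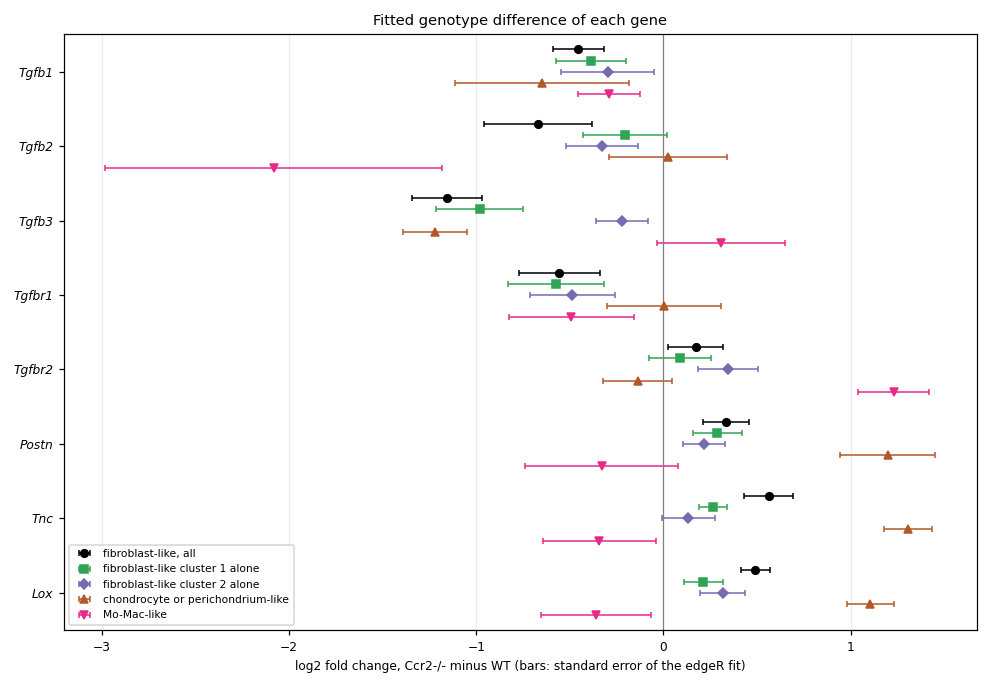
Fitted log2 fold change of Ccr2-/- over WT for each gene, with the standard error of the edgeR fit as a line, in 5 sets of cells. Tgfb3 is at -1.15 in all fibroblast-like cells and at -0.22 in cluster 2 alone, and Lox, Tnc and Postn are furthest to the right in chondrocyte or perichondrium-like cells, at 1.11, 1.31 and 1.20.

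Chondrocyte or perichondrium-like cells, which formed 1 cluster, had wider genotype differences of the fibrosis genes than fibroblast-like cells, and again none passed. Lox stood at 1227 and 1470.0 CPM in the WT pools and at 2865 and 2881 CPM in the Ccr2-/- pools. Tnc stood at 370.1 and 635 CPM in WT, against 942 and 1507 CPM in Ccr2-/- cells, and Postn at 290.2 and 577 CPM against 921 and 947 CPM. Tgfb3 went the other way, with 267 and 283 CPM in WT against 121 and 114 CPM in Ccr2-/- cells. The groups did not overlap for these genes. The pools held 90, 38, 113 and 119 cells, so the WT day 5 value rests on 38 cells.

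The log2 fold changes in these cells were 1.11 for Lox (SE 0.12, adjusted p = 0.254), 1.31 for Tnc (SE 0.13, adjusted p = 0.199), 1.20 for Postn (SE 0.25, adjusted p = 0.465) and -1.22 for Tgfb3 (SE 0.17, adjusted p = 0.255), all by edgeR. Within day 3 and within day 5 the Lox ratio of Ccr2-/- to WT was 2.33 and 1.96, the Tnc ratio 2.54 and 2.37, the Postn ratio 3.17 and 1.64, and the Tgfb3 ratio 0.452 and 0.402, with no test. By edgeR 0 of 14703 genes passed in these cells (0%). Of the 8 genes, 4 had an unadjusted p under 0.05, beside 8.86% of all genes. DESeq2 called those 4, Lox, Tnc, Postn and Tgfb3, beside 1.1% of all genes. Mo-Mac markers moved with genotype here, with a sum of 649 and 556 CPM in the WT pools and 237 and 164 CPM in the Ccr2-/- pools and none of the 7 at 0, and their part in the result was not tested. The cells' own 7 markers summed to 2299.8 and 2171 CPM in WT pools, against 1713 and 1400.5 CPM in Ccr2-/- cells.

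In Mo-Mac-like cells, the lineage that CCR2 feeds, the receptor Tgfbr2 had the smallest p of the 8 genes. It stood at 116 and 149.6 CPM in the WT pools (470 and 449 cells) and at 307 and 292 CPM in the Ccr2-/- pools (126 and 84 cells), without overlap. The log2 fold change was 1.23 (SE 0.19, adjusted p = 0.0684), short of the threshold that 44 genes passed by edgeR (0.268%), and DESeq2 called it (log2 fold change 1.24, adjusted p = 2.9e-05), beside 4.62% of all genes. At an unadjusted p under 0.05 it was the one of the 8, beside 16.6% of all genes. Cluster 0, led by C1qa, held 393 and 444 of the WT cells and 121 and 80 of the Ccr2-/- cells. It was not divided into monocyte-derived and resident-like macrophages, and the paper reports fewer monocyte-derived ones in Ccr2-/- mice. Genotype and such a shift of subsets could not be told apart here. In that cluster alone Tgfbr2 was at 124 and 149.99 CPM in WT, against 309.7 and 294 CPM in Ccr2-/- cells, and without the 1 cell with most Tgfbr2 reads in each pool at 121 and 149 CPM, against 273 and 255 CPM. It was read in 41.8% and 48.9% of thinned WT cells and in 57.3% and 53.8% of Ccr2-/- cells. Fibroblast markers in Mo-Mac-like cells summed to 1357 and 1583 CPM in WT pools, against 1256 and 608 CPM in Ccr2-/- cells, with none of the 7 at 0. The 7 Mo-Mac markers summed to 8881 and 9188 CPM in WT pools, against 5467 and 6747 CPM in Ccr2-/- pools, without overlap, and the part of either list in the result was not tested.

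Tgfb1 in Mo-Mac-like cells stood at 205 and 179 CPM in WT, against 159 and 144 CPM in Ccr2-/- cells, also without overlap, with a log2 fold change of -0.29 (SE 0.17, adjusted p = 0.446). Over all cells kept, which differed between pools in the share of each cell type, Tgfb1 was at 107 and 110.4 CPM in the WT pools and at 60.4 and 62.6 CPM in the Ccr2-/- pools. Tgfbr1 overlapped, at 14.6 and 30.2 CPM in WT against 7.54 and 27.2 CPM in Ccr2-/- cells.

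Over the 8 cell types with at least 20 cells in every pool, 59 pairs of a gene and a cell type could be tested, and 0 passed for genotype by edgeR, beside 0.0598% of all pairs of a gene and a type. At an unadjusted p under 0.05 there were 14, beside 10.2%, and DESeq2 called 10, beside 2.54%. Among the other types, edgeR called 2 of 10620 genes in T cell-like cells (0.0188%), 14 of 12982 in blood endothelium-like cells (0.108%), 6 of 11001 in lymphatic endothelium-like cells (0.0545%), and 0 in NK cell or ILC-like (0%) and dendritic cell-like cells (0%), and none of these calls was one of the 8 genes. The DESeq2 calls outside the types described above were Tnc in T cell-like cells (log2 fold change -2.71) and Lox in lymphatic endothelium-like cells (-3.17), where the WT day 3 value came mostly from 1 cell.

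From day 3 to day 5 no gene of the 8 passed either. In fibroblast-like cells the log2 fold change of day 5 over day 3 was 0.36 for Lox (SE 0.08, adjusted p = 0.718), 0.31 for Tnc (SE 0.13, adjusted p = 0.754) and 0.44 for Tgfb3 (SE 0.18, adjusted p = 0.758), beside 0 of all genes called (0%). Of the 8 genes, 1 had an unadjusted p under 0.05, beside 6.67% of all genes. In chondrocyte or perichondrium-like cells Tnc had 0.74 (SE 0.13, adjusted p = 0.999), with 0 genes called (0%), 1 of the 8 at an unadjusted p under 0.05 and 3.36% of all genes so. In these cells Tnc went from 370.1 CPM on day 3 to 635 CPM on day 5 in WT and from 942 to 1507 CPM in Ccr2-/-. DESeq2 called this shift (adjusted p = 0.0276), and over the 59 pairs edgeR called 0 for day (0.00453% of all pairs of a gene and a type), with 7 at an unadjusted p under 0.05 (4.48%), while DESeq2 called 2 (0.288%), the other being Postn in lymphatic endothelium-like cells. In Mo-Mac-like cells Tgfbr1 had 1.43 (SE 0.34, adjusted p = 0.51) and Tgfb3 had -1.54 (SE 0.35, adjusted p = 0.51), the 2 of the 8 at an unadjusted p under 0.05, beside 7.86% of all genes there and 0 called (0%). Both were low there, with a read of Tgfbr1 in 8.2% and of Tgfb3 in 5.2% of thinned cells. In cluster 0, 1 cell held 23.5% of the Tgfbr1 reads of Ccr2-/- day 3 and 1 cell 38.5% of the Tgfb3 reads of Ccr2-/- day 5. The other pairs at an unadjusted p under 0.05 were Lox (-1.88) and Postn (-2.30) in lymphatic endothelium-like cells, where the WT day 3 value came mostly from 1 cell, and Postn (-0.94) in blood endothelium-like cells.

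Around these genes, 42 further genes of the pathway were read in 6 lists, of which 41 could be tested in fibroblast-like cells. By edgeR 0 passed for genotype in fibroblast-like cells. At an unadjusted p under 0.05, 7 were higher and 14 lower in Ccr2-/- cells, DESeq2 called 6 higher and 6 lower, and the median log2 fold change was -0.08 against -0.01 over all genes tested. Of all genes in these cells, 20.3% had an unadjusted p under 0.05 and DESeq2 called 8.06%, and the counts of each list below are to be read beside these shares. Among 10 tested genes of latency and activation, Thbs1 (thrombospondin-1, an activator of latent TGF-beta) had -0.08 (SE 0.21, adjusted p = 0.886). Ltbp4, a latent TGF-beta binding protein, stood at 196 and 228 CPM in WT, against 143 and 87.6 CPM in Ccr2-/- fibroblast-like cells (log2 fold change -0.91, SE 0.25, adjusted p = 0.148), and DESeq2 called it. In cluster 2 alone its log2 fold change was -0.15. The other DESeq2 calls of this list were Ltbp2 (edgeR log2 fold change 0.67), Itgav (0.67) and Itgb8 (1.14), all higher in Ccr2-/- cells, the last 2 being subunits of integrins that activate latent TGF-beta. These and the further DESeq2 calls given here were named after their values were seen. The co-receptors Tgfbr3 (betaglycan) and Eng (endoglin) had -0.04 and 0.05.

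Of the 7 SMAD and feedback genes, DESeq2 called 1, Smad3, a SMAD that the type I receptor phosphorylates, which stood at 26.6 and 28.6 CPM in WT, against 11.3 and 14.2 CPM in Ccr2-/- cells (edgeR log2 fold change -1.11, SE 0.16, adjusted p = 0.0868). The most read were Pmepa1, a feedback inhibitor that SMADs induce, at 0.11 (SE 0.10, adjusted p = 0.609), and Smad4, the common partner SMAD, at -0.15 (SE 0.10, adjusted p = 0.493). Among 7 matrix and contractile targets, Fn1 (fibronectin) had -0.28 (SE 0.08, adjusted p = 0.156), with -0.11 in cluster 1 alone and 0.17 in cluster 2 alone. DESeq2 called 1 of these 7 higher, Acta2 (smooth muscle actin, edgeR log2 fold change 0.60), and 2 lower, Tgfbi (-0.50) and Cthrc1 (-0.50).

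Of the 7 cross-linking and processing genes beside Lox, DESeq2 called 2 higher, the lysyl oxidase relatives Loxl3 (edgeR log2 fold change 0.82) and Loxl4 (1.09). Loxl1, a lysyl oxidase relative that acts on elastin, had 0.10 (SE 0.10, adjusted p = 0.65), and Pcolce, which enhances procollagen cleavage, had -0.34 (SE 0.08, adjusted p = 0.122). In cluster 1 alone and cluster 2 alone Loxl1 had -0.19 and 0.36, and Pcolce -0.20 and -0.09. The 7 other matricellular and microfibril genes had a median log2 fold change of -0.42, with 5 lower at an unadjusted p under 0.05 (20.3% of all genes, in either direction) and 2 called lower by DESeq2 (8.06% of all genes), Thbs2 (-1.22) and Ccn4 (-0.79). Sparc, a collagen-binding matricellular protein, stood at 14329 and 18206 CPM in WT, against 13260.0 and 11295 CPM in Ccr2-/- cells (log2 fold change -0.39, SE 0.15, adjusted p = 0.24), and Fbn1 (fibrillin-1) had 0.17 (SE 0.08, adjusted p = 0.307). In cluster 1 alone and cluster 2 alone Sparc had -0.11 and -0.16, and Fbn1 0.04 and 0.44. In chondrocyte or perichondrium-like cells 0 of 41 passed by edgeR, 7 were higher and 5 lower at an unadjusted p under 0.05, beside 8.86% of all genes, and the median was -0.002 against 0.05 over all genes tested. DESeq2 called 4 there, beside 1.1% of all genes, with edgeR log2 fold changes of 1.34 for Ltbp2, 0.81 for Pmepa1 and 1.21 for Loxl4, and -1.25 for Eln (elastin).

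Likeness of pattern was described by Pearson's r of log2(CPM + 1) over 44 sums of a pool and a cell type, from 13 cell types that share 1 library and differ in depth. Out of 14078 genes, those most like Postn were Col3a1 (r = 0.92), Cpxm1 (0.92) and Rarres2 (0.92), and those most like Tnc were Col12a1 (0.94), Ccn5 (0.93) and Col5a2 (0.93). Nearest to Lox were Bdkrb1 (0.94), Sod3 (0.93) and Steap2 (0.92). Tgfb1 was nearest to Gmfg (0.89), Inpp5d (0.89) and Ptpre (0.88). Tgfb2 was nearest to Dpysl3 (0.90), Fbn1 (0.89) and Sspn (0.88), and Tgfb3 to Nfia (0.84), Plcd1 (0.82) and Thbs1 (0.82). The receptors had looser neighbours, Plod1 (0.81), Layn (0.77) and Gadd45g (0.75) for Tgfbr2, and Plin1 (0.66), Ddit3 (0.62) and P4ha2 (0.62) for Tgfbr1. Among the 8 genes, Tnc and Lox had r = 0.88, Postn and Tnc 0.87, and Tgfb1 had a negative r with each of the others, down to -0.61 with Tgfb3.

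In single fibroblast-like cells, from 17.0% to 26.6% of the cells with a read of one ligand also had a read of another, near the 18.5% to 23.9% of all thinned cells with a read of each. Of 1902 cells thinned to 10000 reads, 454 had a read of Tgfb2 (23.9%), 364 of Tgfb1 (19.1%) and 352 of Tgfb3 (18.5%). Cells with both Tgfb1 and Tgfb2 numbered 97, which were 26.6% of the Tgfb1 cells and 21.4% of the Tgfb2 cells. Both Tgfb2 and Tgfb3 were read in 89 cells, 19.6% of the Tgfb2 cells and 25.3% of the Tgfb3 cells. Of the 352 Tgfb3 cells, 177 (50.3%) had a read of Tnc, beside 61.3% of all thinned fibroblast-like cells. Reads of the receptor Tgfbr2 were found in 83.5% of the Tgfb2 cells, beside 78.9% of all. These shares are a description of cells of 1 library and were not tested.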

How the data were processed

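TAS-Seq reads of 1 cDNA library and 1 hashtag library were used. The deposited counts are reads per gene or hashtag and cell barcode, made by the authors with Cutadapt and Bowtie2 against mouse Ensembl RNA (GRCm38.p6), with barcodes above the knee-plot inflection. PCR copies were not collapsed, so Poisson intervals count copies as separate reads and are too narrow for molecules. Intervals and floors leave out the spread between mice. The background correction named in the study's methods could not be told from the values. A barcode went to its leading hashtag if that had at least 3 times the next (each hashtag divided by its total) and at least 10 reads in all, which also removed doublets between pools (570 barcodes), and no other doublet caller was run. Barcodes with over 20% mitochondrial reads or under 200 genes were left out, as were 9 hashtag columns of no sample here. Cells (log CPM, 2000 variable genes without the 8 genes and the pathway lists, 30 components, 20 neighbours) were clustered by Leiden at resolution 1 (scanpy 1.11.5, leidenalg 0.10.2). A cluster was named X-like after its best marker list (mean z-score over 0.5, with 3 markers in at least 25% of cells). It was left unnamed if its leading genes held more markers of another list. The same held if its depth was low in most pools and its leading genes held no marker of its own list, as in the cluster led by Il1a. Reads summed per pool and cell type (20 cells or more in each pool) were tested in edgeR 4.0.16 (TMM, filterByExpr, quasi-likelihood, day and genotype, Benjamini-Hochberg over all genes, 0.05), and with DESeq2 1.42.0 as an alternative. The script was tested on simulated data. Nothing states that pools were separate animals. With 1 pool per genotype and day, the residual of the fit was how far the genotype difference changed between the days. So p-values, with the residual moderated over genes, measure that and not a spread between replicate pools, and it may be technical. Members and gene lists were chosen with earlier results of these data known. The 2 most read genes of each pathway list are named, as none passed, except 1 that is not reported here, and the 3 most alike genes of each member.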

Additional observations from a re-analysis of the deposited data

Results flagged for a closer look

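Fibroblast-like, chondrocyte or perichondrium-like and Mo-Mac-like cells held 3 cases where the genotype ratios within day 3 and within day 5 had opposite signs. In each, the counting intervals of WT and Ccr2-/- were apart on both days. Those intervals count PCR copies as separate reads and are too narrow, and the difference between days was not tested. Tgfbr2 in fibroblast-like cells had a log2 ratio of Ccr2-/- to WT of -0.11 on day 3 and 0.44 on day 5. Tgfb2 in chondrocyte or perichondrium-like cells had 0.51 on day 3 and -0.48 on day 5. Postn in Mo-Mac-like cells, where its share of thinned cells was not above that of neutrophil-like cells, had 0.48 on day 3 and -1.25 on day 5.

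The 1330 barcodes given to no pool entered no comparison, and they too held reads of the 8 genes. Their levels were 43.4 CPM for Tgfb1, 49.9 CPM for Tgfb2, 52.9 CPM for Tgfb3, 26.3 CPM for Tgfbr1, 323 CPM for Tgfbr2, 2998 CPM for Postn, 1189 CPM for Tnc and 913 CPM for Lox.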

How the results depend on the processing

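No paired analysis was possible because each genotype and day was 1 pool with no replicate number. Day was a term of the edgeR fit, so the genotypes were compared within day. Genotype calls in fibroblast-like cells (0 by edgeR) were 1616 with DESeq2, 624 with no filter on low counts, 88 at cluster resolution 2 and 2 in cluster 2 alone. Calls over the other types (66) were 1188 with DESeq2, 1342 with no filter, 154 at a hashtag ratio of 10, 41 at resolution 0.5, 14 at resolution 2, 14 at a mitochondrial limit of 10% and 0 without the day term. In Mo-Mac-like cells alone, the 44 calls were 0 at the mitochondrial limit of 10%, at resolution 2, with the per-cell marker gate and without the day term. There they were 13 higher and 14 lower at resolution 0.5, and 66 higher and 58 lower at a hashtag ratio of 10. Pairs of a gene and a type called for genotype (0) were 10 with DESeq2, 10 with no filter, 1 at a hashtag ratio of 10 (Tgfbr2 in Mo-Mac-like cells) and 1 with a per-cell marker gate (Postn in chondrocyte or perichondrium-like cells). Pairs called for day (0) were 2 with DESeq2, 2 with no filter and 2 with the gate. The cell type with the highest level was kept for all 8 genes except at the mitochondrial limit of 10% (6), at resolution 0.5 (7), at resolution 2 (6), with the gate (7) and with the mean over cells (6). The share of cells was above that of neutrophil-like cells for 7 genes, for 6 with at least 3 reads and for 8 with no thinning.

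Of 252 fitted or within-day genotype values, 2 turned direction and 17 passed the adjusted threshold that the main fit did not pass. A further 21 within-day values, which had no test, lay a standard error or more from the fitted value, and 212 did none of these. Of 233 day values, 6 turned, 2 passed the threshold, 22 lay that far from the fitted value and 203 did none of these. A value below its standard error in both fits was given no direction. The genotype differences that turned were Tgfbr2 in fibroblast-like cells (-0.11 on day 3 alone) and Tgfb1 in chondrocyte or perichondrium-like cells (0.071 on day 3 alone). The day differences that turned were, in fibroblast-like cells, Tgfb2 (-0.43 in cluster 1 alone), Tgfbr2 (0.054 in Ccr2-/- alone) and Tnc (-0.15 at the mitochondrial limit of 10%, -0.11 in cluster 2 alone), and with the gate Postn (-0.15) and Lox (-0.059) in chondrocyte or perichondrium-like cells. In fibroblast-like cells Tgfb3 went from -1.15 to -0.14 at the mitochondrial limit of 10% and to -0.26 at resolution 2, where the cluster led by Reg1 was not named fibroblast-like. The cause of the changes was not tested. Cluster 1 alone, leaving out the small fibroblast-like cluster led by small RNAs, the mitochondrial limit, resolution and clustered genes for calls and differences, and all alternatives for calls in the other types were chosen after seeing the data. With 1 pool per genotype and day and reads in place of molecules, depth and the number of mice limit the precision of every value.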
